A study of Mus musculus with 6 samples.

Results

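MHC class II genes and Ciita were followed through RNA sequencing libraries of thymic tuft cells, epithelial cells of the thymus that carry the chemosensory program of taste cells. The 10 genes were listed by name and matched by symbol, and all 10 were found among the 55471 genes of the expression table. All 10 had a mean normalized value of at least 10 and were among the 19416 genes tested. They are the surface chains H2-Aa, H2-Ab1 and H2-Eb1, the invariant chain Cd74, the peptide-loading chains H2-DMa, H2-DMb1 and H2-DMb2, the chains of the loading inhibitor, H2-Oa and H2-Ob, and the regulator Ciita.

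The cells were sorted on the surface protein L1CAM from mouse thymus and lysed for SMART-seq, a method that amplifies cDNA from small inputs. The labels describe 3 samples from Foxn1-Cre(+) Ikzf1fl/fl mice, with the genotype KO, and 3 from Foxn1-Cre(-) Ikzf1fl/fl mice, with the genotype WT. Ikzf1 encodes the transcription factor Ikaros; its alleles are floxed in both groups, and the Foxn1-driven recombinase acts in thymic epithelium at large and not in tuft cells alone. The sources used here do not give age, sex or strain, nor say whether animals were pooled. The table names its columns Ko1 to Ko3 and Het1 to Het3. Ko was read as the Cre-positive group. Het does not occur in any label and was assigned to the Cre-negative group because no other group remained. No label says that samples of a group came from separate animals, so the spread behind each p-value is that between these libraries and may be technical.

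Ikzf1 itself had normalized counts of 1572, 1463 and 1717 in Ko1, Ko2 and Ko3, against 301, 187 and 273 in Het1, Het2 and Het3. The gene named as the target was thus higher in the libraries labelled Ko, by 2.66 ± 0.30 on the log2 scale (limma, adjusted p = 0.0105; 0.0621 without Het3). This goes against a loss of the transcript under that label, and counts over the whole gene do not show whether the floxed part is missing. Directions below are therefore given for libraries labelled Ko relative to libraries labelled Het. L1cam, the sorting marker, had 3809, 2924 and 4277 in the Ko libraries and 3053, 2787 and 2395 in the Het libraries (adjusted p = 0.408). Library totals were 12238400 to 17140800 reads in Ko and 12429300 to 31435800 reads in Het, and mitochondrial genes took 10.4% to 12.1% of them in Ko and 8.66% to 11.1% in Het. A value of 3 reads corresponds to a normalized count of 1.68 in the deepest library, Het1, and of 4.33 in Het3.

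MHC class II molecules are pairs of an alpha and a beta chain that carry peptides to the cell surface and show them to CD4 T cells. In the endoplasmic reticulum the invariant chain fills the peptide groove, later leaves a short fragment in it, and H2-DM exchanges that fragment for other peptides, while H2-DO restrains H2-DM. Transcription of most of these genes depends largely on CIITA, a coactivator. It does not bind DNA itself but is recruited to promoter elements called the X box and the Y box. In the thymus, epithelial cells use class II molecules to present self peptides to developing T cells.

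All 10 genes had lower mean values in the libraries labelled Ko, by 1.41-fold for H2-DMa to 9.40-fold for H2-Ob. The median log2 fold change of the 10 genes was -0.93, against -0.05 over all genes tested, of which 52.8% had a negative value. No gene of the 10 passed an adjusted p of 0.05 in limma, the test used throughout unless another is named, which called 0.525% of genes lower in Ko. Adjusted p-values ran from 0.116 to 0.459. At an unadjusted p of 0.05, 6 of the 10 were lower, namely Cd74, H2-Ab1, H2-Aa, H2-DMb2, H2-Oa and H2-Ob, against 7.99% of all genes. edgeR's quasi-likelihood test on recovered reads also called 0 of the 10, with a smallest adjusted p of 0.219.

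The calls differed between tools. DESeq2 on the same genes called 5 of the 10 lower (Cd74, H2-Aa, H2-Ab1, H2-Oa and H2-Ob), where it called 4.24% of all genes lower. The authors' deposited table called 2, H2-Oa and H2-Ob, where it called 5.16% of its genes lower. DESeq2 run on every gene with a read, without a filter on low values, also called H2-Oa and H2-Ob, and 5.28% of genes lower. Its fold changes for the 10 genes were the authors' to 2 decimals, so the filter on low values alone separated the 5 calls from the 2.

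**Figure D1:**
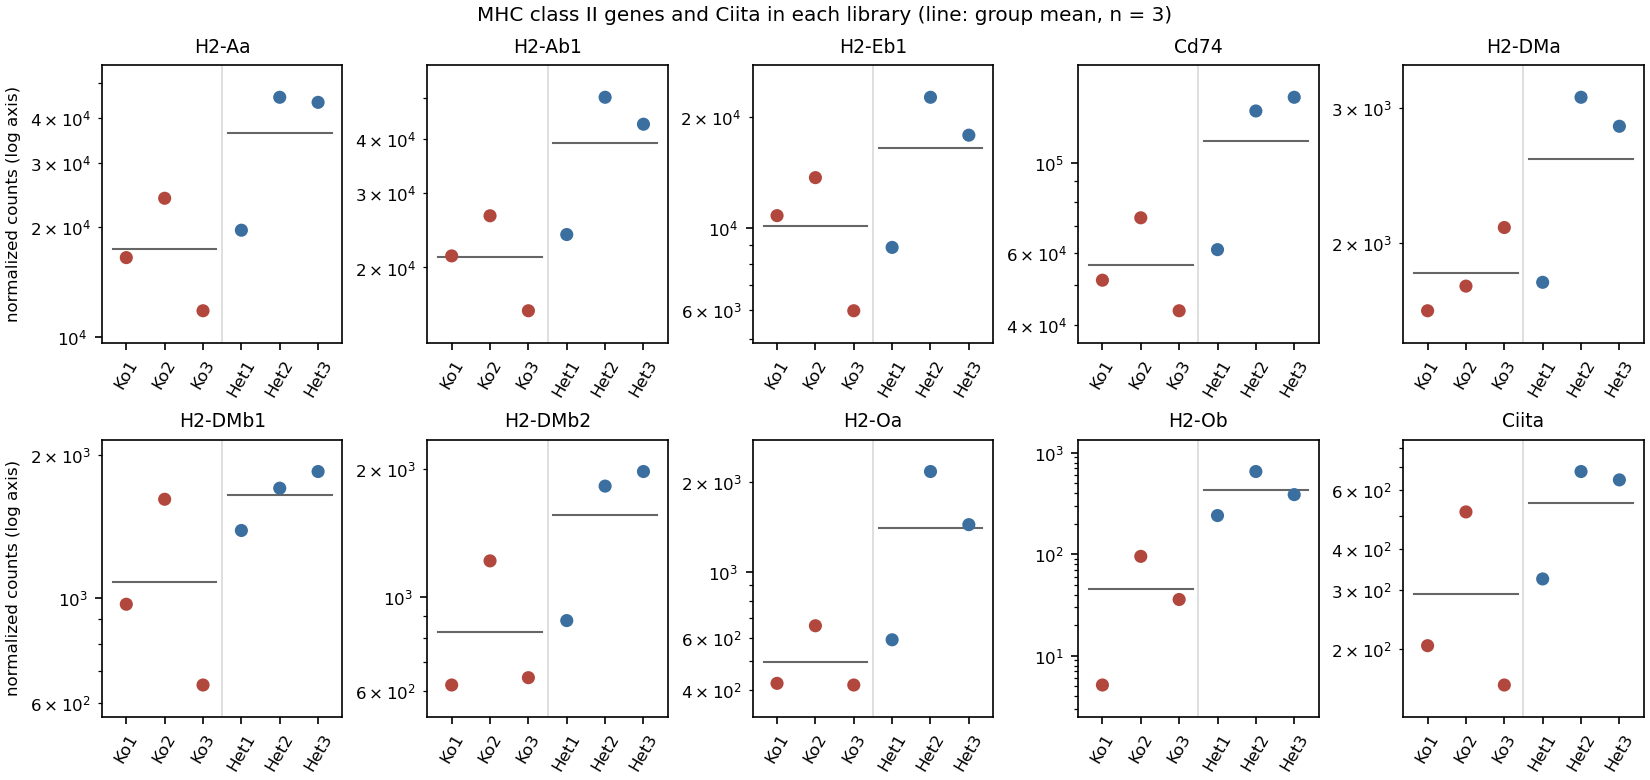
Normalized counts of the 10 genes on log axes, each panel with its own scale, 1 point per library and a line at the mean of each group of 3. Ko libraries are left and red, Het libraries right and blue. Het1 is the lowest Het library in all 10 panels, and only H2-Ob has every Ko library below every Het library.

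The surface chains were among the most abundant of these transcripts. H2-Aa, the alpha chain of the I-A molecule, had 16516, 24056 and 11794 normalized counts in Ko1, Ko2 and Ko3, against 19647, 45617 and 44173 in Het1, Het2 and Het3. Het2 and Het3 stood above every Ko library, while Het1 lay between Ko1 and Ko2. The log2 fold change was -1.03 ± 0.33 (SE; 95% interval -1.76 to -0.29; limma adjusted p = 0.200).

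H2-Ab1, the beta chain that pairs with H2-Aa, had 21294, 26461 and 15824 in the Ko libraries, against 23904, 50257 and 43437 in the Het libraries. It showed the same arrangement, with Het1 between Ko1 and Ko2. Its log2 fold change was -0.85 ± 0.27 (95% interval -1.44 to -0.26; adjusted p = 0.188).

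H2-Eb1, the beta chain of the I-E molecule, had 10801, 13692 and 5966 in the Ko libraries, against 8858, 22607 and 17845 in the Het libraries. Here Het1 lay below both Ko1 and Ko2. The log2 fold change was -0.67 ± 0.36, with a 95% interval of -1.47 to 0.13 (adjusted p = 0.459). H2-Ea, the alpha chain that would complete I-E and that some laboratory strains do not express, stood near the detection floor at 0, 4.14 and 1.43 in the Ko libraries, against 1.12, 37.6 and 31.7 in the Het libraries. Only Het2 and Het3 exceeded the value of 3 reads by more than a few counts.

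Cd74, the invariant chain that occupies the groove of newly made class II molecules, was the highest of the 10 genes. It had 51503, 73288 and 43336 normalized counts in the Ko libraries, against 61221, 134049 and 144842 in the Het libraries. The group means were 56042 ± 15483 in Ko and 113371 ± 45484 in Het (SD, n = 3 each). Its log2 fold change was -0.95 ± 0.30 (95% interval -1.62 to -0.29; limma adjusted p = 0.189), and Het1 again fell within the Ko range.

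H2-DM loads peptides onto class II molecules. H2-DMa, its alpha chain, had 1630, 1755 and 2093 in the Ko libraries, against 1775, 3095 and 2837 in the Het libraries. It had the smallest difference of the 10 genes, -0.46 ± 0.24 on the log2 scale (95% interval -1.01 to 0.09; adjusted p = 0.459), and it was the one gene whose highest Ko library was Ko3. The annotation used here places 4 other genes over H2-DMa, among them Brd2, and the counting is not stated to use strand, so reads of these genes may not be told apart.

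The beta chain of H2-DM is encoded by a pair of neighbouring and very similar genes. H2-DMb1 had 969, 1614 and 655 in the Ko libraries, against 1387, 1703 and 1847 in the Het libraries (log2 fold change -0.70 ± 0.32, adjusted p = 0.387). H2-DMb2 had 619, 1216 and 645 in the Ko libraries, against 879, 1826 and 1977 in the Het libraries (-0.90 ± 0.38, adjusted p = 0.333). Ko2 exceeded Het1 in both.

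Of the 50-base stretches in the transcripts of H2-DMb1, 22.7% also occur in H2-DMb2, and 21.2% the other way round, so the split of reads between them is uncertain. No other gene of the 10 shared such a stretch with another. Among reads given to either gene, H2-DMb1 took 61.0% in Ko1, 57.0% in Ko2 and 50.4% in Ko3 (Wilson 95% intervals 58.6% to 63.4%, 55.2% to 58.9% and 47.1% to 53.6%). It took 61.2% in Het1, 48.3% in Het2 and 48.3% in Het3 (59.7% to 62.7%, 46.9% to 49.6% and 46.4% to 50.2%). Het1 therefore resembled Ko1, not the other Het libraries, also in the balance of this pair. The intervals cover counting error only, and reads amplified without molecular identifiers are not independent molecules.

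H2-DO binds H2-DM and restrains it. H2-Oa, its alpha chain, had 421, 658 and 415 in the Ko libraries, against 590, 2177 and 1441 in the Het libraries. Het2 and Het3 were well above all Ko libraries and Het1 below Ko2. The log2 fold change was -1.33 ± 0.45 (95% interval -2.34 to -0.33; limma adjusted p = 0.231), and in the authors' deposited table it was -1.49 with an adjusted p of 0.0456.

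H2-Ob, the beta chain of H2-DO, differed most. It had 5.14, 95.3 and 35.8 normalized counts in Ko1, Ko2 and Ko3, against 240, 653 and 387 in Het1, Het2 and Het3. These values rest on 5, 92 and 25 reads in the Ko libraries and on 430, 920 and 268 reads in the Het libraries. It was the only 1 of the 10 genes whose groups did not overlap, a pattern with every Ko library lower that 9.86% of all genes tested also had.

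The group means of H2-Ob were 45.4 ± 45.8 in Ko and 427 ± 209 in Het (SD, n = 3 each), 9.40-fold lower in Ko. The log2 fold change was -3.82 ± 0.98 (95% interval -6.00 to -1.63; limma unadjusted p = 0.00299, adjusted p = 0.116). Leaving out 1 library moved it to between -2.73 (without Ko1) and -4.71 (without Ko2). In the authors' deposited table it was -3.23 with an adjusted p of 0.00821. The exact Poisson 95% interval of the highest Ko library, Ko2, was 76.8 to 117, and that of the lowest Het library, Het1, was 218 to 264. The intervals of the Ko libraries did not overlap among themselves either, at 1.67 to 12.0 in Ko1 and 23.2 to 52.9 in Ko3. All these intervals cover counting error only, and reads amplified without molecular identifiers are not independent molecules.

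Ciita, the coactivator on which most of the other genes largely depend, was a low transcript. It had 205, 515 and 156 normalized counts in the Ko libraries, against 324, 680 and 642 in the Het libraries. Ko2 exceeded Het1 but lay below Het2 and Het3. The log2 fold change was -1.03 ± 0.52, with a 95% interval of -2.18 to 0.12 (adjusted p = 0.428). Dexi overlaps Ciita in the annotation, BC051537 overlaps H2-Oa, Gm20513 overlaps H2-Eb1 and Mir5107 overlaps Cd74, and without stated strand their reads may not be told apart either.

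**Figure D2:**
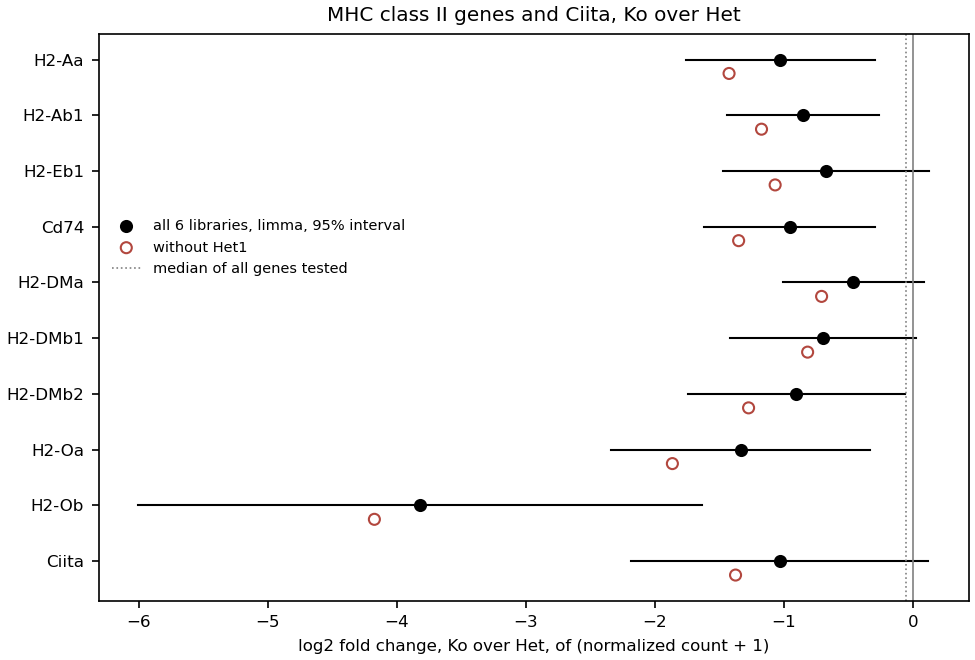
Log2 fold changes of normalized count + 1, Ko over Het, for the 10 genes. Filled points and bars are the limma estimates with 95% intervals from all 6 libraries, open circles the estimates without Het1, and the dotted line the median of all genes tested (-0.05). All 20 estimates lie below 0, and 6 of the 10 intervals do.

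The libraries of a group were not alike for these genes. Het1 was the lowest Het library for 10 of the 10 genes, which held for 34.0% of all genes tested. It lay below Ko2 for 8 of the 10 and below the highest Ko library for 9. Ko2 was the highest Ko library for 9 of the 10, against 34.0% of all genes tested, and 12.9% of all genes had both Het1 lowest in Het and Ko2 highest in Ko. Ko3 was the lowest Ko library for 7 genes and Ko1 for 3, while Het2 was highest in Het for 7 and Het3 for 3.

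Without Het1, all 10 genes had every Ko library below both remaining Het libraries, as did 17% of all genes tested. Het1 was the lowest Het library for all 10 genes, so leaving it out favours this pattern in them more than in all genes. The comparison was then 3 Ko against 2 Het libraries. Cd74 was called in that fit (log2 fold change -1.35 ± 0.19, limma adjusted p = 0.0288), where 0.306% of all genes were called lower. H2-Ab1 had an adjusted p of 0.0501, H2-Aa of 0.0571 and H2-Oa of 0.0618, and H2-Ob had -4.17 ± 1.17 with an adjusted p of 0.153. Leaving out Het2, Het3 or Ko3 gave smaller differences for the abundant chains than all 6 libraries did. Leaving out Ko2 gave larger ones, with -1.16 for Cd74 (limma adjusted p = 0.178) and -0.93 for H2-Eb1 (0.376). Cd74 had -0.78 without Het2 (adjusted p = 0.436), -0.73 without Het3 (0.459) and -0.79 without Ko3 (0.434). H2-Eb1 had -1.07 without Het1, but -0.39 without Het2 and -0.33 without Ko3.

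Reads of the 10 genes together made up 0.602%, 0.807% and 0.462% of all reads in Ko1, Ko2 and Ko3. They made up 0.676%, 1.47% and 1.45% in Het1, Het2 and Het3. The means were 0.624% ± 0.174 in Ko and 1.20% ± 0.451 in Het (SD, n = 3 each), and Het1 lay between Ko1 and Ko2. The difference of -0.573 percentage points had an exact two-sided permutation p of 0.2, where 3 libraries against 3 cannot go below 0.10. In RNA from sorted pools, fewer cells with these transcripts and less RNA per cell cannot be told apart.

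Per kilobase of exon, the order of the 10 genes by mean level was Cd74, H2-Ab1, H2-Aa, H2-Eb1, H2-DMb1, H2-DMb2, H2-Oa, H2-DMa, Ciita and H2-Ob. Cd74 had 25811 to 43650 normalized counts per kilobase in Ko and 36463 to 86267 in Het, above every value of the next gene. H2-Aa and H2-Eb1 exchanged places between libraries, with H2-Eb1 higher in Ko1 and Ko2 and H2-Aa higher in the other 4. The 4 genes of H2-DM and H2-Oa ranged from 295 to 1547 per kilobase over all libraries and their ranges overlapped. Ciita, at 16.4 to 54.0 in Ko and 34.0 to 71.3 in Het, and H2-Ob, at 0.956 to 17.7 in Ko and 44.7 to 121 in Het, stood below all the others, and Ciita was above H2-Ob in every Ko library but below it in every Het library.

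Ratios per kilobase between the abundant chains varied little. H2-Aa over H2-Ab1 was 0.504 to 0.615 in the Ko libraries and 0.556 to 0.688 in the Het libraries. Cd74 over H2-Ab1 was 3.70 to 4.24 in Ko and 3.92 to 5.10 in Het, and H2-Eb1 over H2-Ab1 was 0.498 to 0.684 in Ko and 0.490 to 0.594 in Het. The groups overlapped in all 3 ratios, and Het1 lay within or near the range of the Ko libraries in each.

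The ratios of the loading genes varied more. H2-DMa over the sum of H2-DMb1 and H2-DMb2 was 0.508, 0.307 and 0.800 in Ko1, Ko2 and Ko3, and 0.388, 0.436 and 0.369 in Het1, Het2 and Het3, with overlap between the groups. H2-Oa over H2-Ob was 313, 26.4 and 44.4 in the Ko libraries, against 9.38, 12.7 and 14.3 in the Het libraries. This was the one ratio of the 5 plotted in which the groups did not overlap, and Het1 sat with the other Het libraries. The value of Ko1 rests on the 5 reads of H2-Ob there, and no test was made of the ratios. H2-Ob was itself the only gene of the 10 without overlap between the groups, so this ratio is not a separate result. H2-DMa over H2-Ab1, H2-Oa over H2-DMa and H2-Ab1 over Ciita, not plotted, overlapped between the groups.

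**Figure D3:**
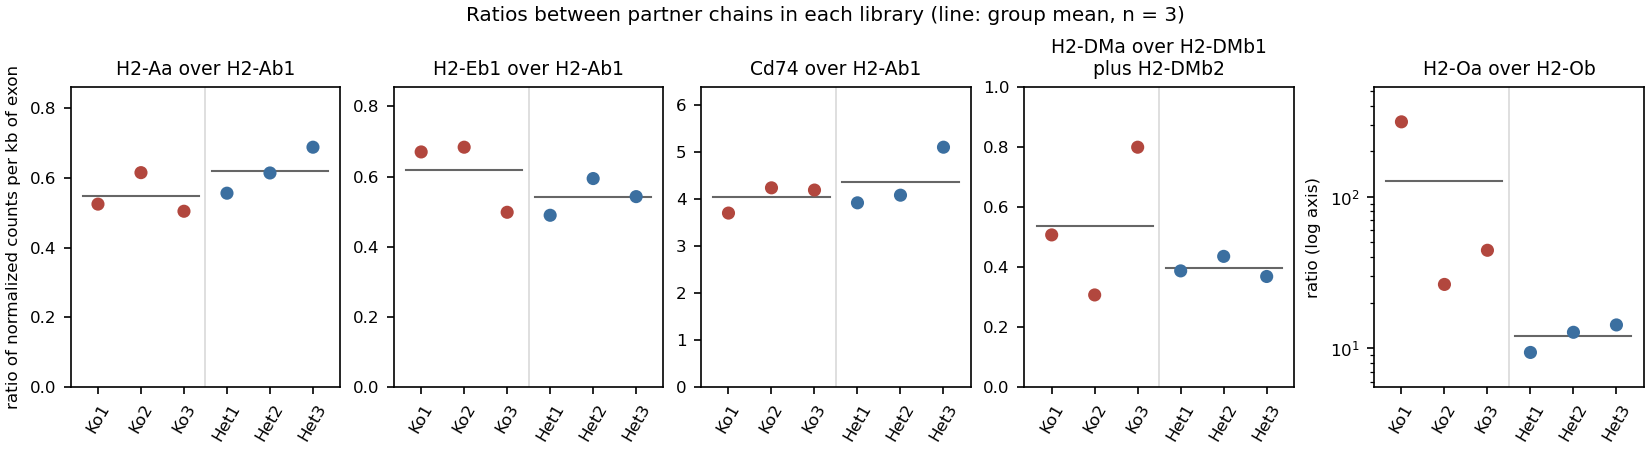
Ratios of normalized counts per kilobase of exon in each library, Ko left and red, Het right and blue, with lines at the means of 3 libraries. The first 4 panels have linear axes from 0 and the last a log axis; only H2-Oa over H2-Ob separates the groups, at 26.4 to 313 in Ko and 9.38 to 14.3 in Het.

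Promoter sequences are shown because these genes were lower in the same libraries and share a known pair of promoter elements. RefSeq windows of 300 bases around gene starts (GRCm38.p6, 250 bases before to 50 after) were at hand for 7 of the 10 genes, H2-DMa with a pair of windows. In 4 of the 7, the X box was followed on the same strand by ATTGG within 30 bases. The X box was taken in its published consensus with at most 2 mismatches. ATTGG is the reverse complement of CCAAT, the Y box core. Those 4 stretches are shown from the X box to the Y box, 5′ to 3′ on the plus strand, with both elements in capitals. They lie on chromosome 17 at chr17:34145114-34145171 for H2-DMb2, chr17:34153085-34153142 for H2-DMb1, chr17:34238806-34238860 for H2-Ob and chr17:34305764-34305820 for H2-Eb1.
H2-DMb2: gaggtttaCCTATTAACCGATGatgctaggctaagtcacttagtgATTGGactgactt
H2-DMb1: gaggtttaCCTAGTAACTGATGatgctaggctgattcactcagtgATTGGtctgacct
H2-Ob: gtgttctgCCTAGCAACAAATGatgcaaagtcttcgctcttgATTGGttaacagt
H2-Eb1: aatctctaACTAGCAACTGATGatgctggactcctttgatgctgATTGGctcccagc

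The X box had 0 mismatches in H2-DMb1 and 1 each in H2-DMb2, H2-Ob and H2-Eb1. It began 127 bases before the gene start in H2-DMb2, 98 in H2-DMb1, 91 in H2-Ob and 95 in H2-Eb1, and 20 to 23 bases separated it from the Y box core. Of all 32851 RefSeq windows, 8.47% held the X box with at most 2 mismatches on either strand. The Y box core, as CCAAT or ATTGG, was in 37.4%, and the X box followed by ATTGG in this order and spacing was in 0.231%. The spacing limit was chosen after these sequences had been seen. H2-Oa, H2-DMa and H2-Aa held the Y box core, as all 7 genes did, but no X box with up to 2 mismatches, which says only that these letters are not in the windows searched. H2-Ob thus has the pair of elements in common with H2-DMb1, H2-DMb2 and H2-Eb1, whose log2 fold changes were -0.70, -0.90 and -0.67, against -3.82 for H2-Ob.

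Factors that bind these elements were measured alongside. Of 14 genes for promoter factors of class II genes, 0 passed the test in either direction, 7 had negative log2 fold changes and the median was 0.01, with 2 at an unadjusted p under 0.05, a threshold that 13.6% of all genes tested passed in either direction. The RFX complex binds the X box. Its DNA-binding subunit Rfx5 had 89.5, 148 and 125 in the Ko libraries, against 52.6, 44.7 and 26.0 in the Het libraries, so that every Ko library was higher (log2 fold change 1.56 ± 0.75, limma adjusted p = 0.402). DESeq2 called 0 of the 14, while the authors' deposited table called 3, all higher in Ko: Rfx5 (adjusted p = 0.0323), Nfyb (0.0219) and Crebbp (0.0353). Of its 19746 genes with an adjusted p, that table called 599 higher.

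The other subunits of RFX were also measured. Rfxap had 760, 472 and 514 in the Ko libraries and 380, 1002 and 649 in the Het libraries (adjusted p = 0.919). Rfxank had 424, 292 and 543 in the Ko libraries and 154, 290 and 264 in the Het libraries (0.83 ± 0.44, adjusted p = 0.452). None of the 3 RFX subunits was lower in every Ko library. Of the other factors, the histone acetyltransferase Crebbp (0.64 ± 0.21, adjusted p = 0.214) and Nfyb, a subunit of the factor that binds the Y box (0.79 ± 0.32, adjusted p = 0.312), had the smallest p.

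Interferon gamma induces Ciita through JAK kinases and IRF1. Of 12 genes of this route, 0 passed the test, 8 had negative values and the median was -0.19, with 2 at an unadjusted p under 0.05, against 13.6% of all genes. Ifngr2, a receptor subunit, had the smallest p (-0.77 ± 0.27, adjusted p = 0.244). It was followed by Irf8, an interferon-inducible factor of myeloid and B cells, with 444, 386 and 382 in the Ko libraries and 493, 1047 and 732 in the Het libraries (-0.84 ± 0.35, adjusted p = 0.330). Irf1 had 0.53 ± 0.29 (adjusted p = 0.470) and Spi1 -1.91 ± 1.07 (adjusted p = 0.483).

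Of 8 other genes of the class II region, 0 passed the test, 6 had negative values and the median was -0.16, with 1 at an unadjusted p under 0.05, against 13.6% of all genes. That was Psmb8, an immunoproteasome subunit, with 4486, 3684 and 3366 in the Ko libraries, all below the 4934, 5896 and 6431 of the Het libraries (-0.58 ± 0.17, adjusted p = 0.172). Tap2, part of the peptide transporter of the class I pathway, had -0.52 ± 0.35 (adjusted p = 0.576). Psmb9 had -0.20 ± 0.21 (adjusted p = 0.738), and H2-Ea, given above, -2.58 ± 1.68 (adjusted p = 0.558). H2-Eb2, a relative of H2-Eb1 in the same region, had 286, 525 and 374 in the Ko libraries and 338, 482 and 302 in the Het libraries, without the lower Ko values of H2-Eb1.

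Of 15 genes that process antigen or invariant chain in endosomes, 1 fell, 0 rose and 11 had negative values, with a median of -0.22 and 5 at an unadjusted p under 0.05, against 13.6% of all genes. Ctsz, the lysosomal carboxypeptidase cathepsin Z, fell to 972, 654 and 874 in the Ko libraries, against 2727, 3337 and 4453 in the Het libraries (-2.06 ± 0.25, limma adjusted p = 0.0121). Without Het2 its adjusted p was 0.0614 and without Het3 0.0918, in fits that called 14 and 0 of all genes. Ctsz had Het1 far above every Ko library, which held for only 1 of the 10 class II genes, H2-Ob.

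The other cathepsins of the list did not pass the limma test. DESeq2 called Ctsh (adjusted p = 0.000338) and Ctss (0.00393) lower, as did the authors' deposited table (0.0108 and 0.0112), which also called Ifi30 lower (0.0309). Ctsh, cathepsin H, had 1760, 899 and 537 in the Ko libraries and 2169, 4635 and 4215 in the Het libraries (-1.88 ± 0.42, adjusted p = 0.0826, and 0.0393 without Ko1). Ctss, cathepsin S, which degrades the invariant chain in B cells and dendritic cells, had 906, 790 and 547 in the Ko libraries and 1154, 1987 and 2554 in the Het libraries (-1.30 ± 0.33, adjusted p = 0.116). Ctsl, cathepsin L, which does so in cortical thymic epithelium, had 13100, 15861 and 12619 in the Ko libraries and 11257, 10811 and 8952 in the Het libraries (0.42 ± 0.14, adjusted p = 0.234). Ctss and Ctsl thus had opposite signs, neither past the limma test. Ifi30, a thiol reductase that unfolds antigens, had -0.85 ± 0.35 (adjusted p = 0.328).

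Of 12 genes for surface turnover of class II and co-stimulation, 0 passed the test, 8 had negative values and the median was -0.51, with 6 at an unadjusted p under 0.05, against 13.6% of all genes. DESeq2 called Cd82 and Cd80 lower and Cd37 higher, and the authors' deposited table called Cd82 lower and Cd37 higher. Cd80, a ligand of CD28, had 161, 7.25 and 11.5 in the Ko libraries, against 183, 572 and 495 in the Het libraries (-3.87 ± 1.10, adjusted p = 0.150, and 0.0393 without Ko1). Ko1 came close to Het1, and the other 4 libraries stood far apart. The tetraspanin Cd82 had -0.91 ± 0.22 (adjusted p = 0.0996), and another tetraspanin, Cd37, had 1.38 ± 0.42 (adjusted p = 0.178). Cd9, also a tetraspanin, had -0.58 ± 0.21 (adjusted p = 0.254).

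Other cell types that carry class II could add to such libraries, so their markers were read in the same libraries. The 16 tuft cell markers summed to 157257 to 177615 normalized counts in Ko and 122614 to 175482 in Het, and all 16 were tested, with 2 negative values, a median of 0.35 and 0 called by limma. DESeq2 and the authors' deposited table called 1, Gng13, lower. The G protein subunit Gng13 had the smallest p of them (-0.70 ± 0.14, adjusted p = 0.0504), followed by Alox5ap (0.66 ± 0.24, adjusted p = 0.256), Chat (0.65 ± 0.25, adjusted p = 0.296) and Ltc4s (0.37 ± 0.15, adjusted p = 0.305). The labelled cell type therefore had its markers in every library, including Trpm5, the channel of taste transduction, at 11647 or more.

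B cell markers summed to 5695 to 7045 in Ko and 2927 to 4204 in Het. Without Cd79b, which made up most of it, the sum was 1030 to 1537 in Ko and 1051 to 1730 in Het, with overlap. Of the 9 markers tested, 5 had negative values and the median was -0.21. Cd79b rose (1.12 ± 0.20, limma adjusted p = 0.0433), a call lost without Ko1, Ko2, Ko3, Het2 or Het3 (adjusted p 0.0661 to 0.171) and in edgeR (0.0826), but not without Het1. The markers Ms4a1 and Fcmr had at most 6.15 in any library, and 9 of the 12 markers were tested. Others were clearly present, with Ebf1 at 375 to 830, Ighm at 103 to 985 and Igkc at 89.5 to 245 over all libraries. Cd79a had 2.06, 1.04 and 1.43 in the Ko libraries, against 0.559, 108 and 10.1 in the Het libraries. The part of B cells in the class II values was not tested. After Cd79b the smallest p were those of Ighm (-1.05 ± 0.64, adjusted p = 0.525), Cd79a (-2.32 ± 1.79, adjusted p = 0.627), Igkc (0.70 ± 0.56, adjusted p = 0.644) and Pax5 (-1.36 ± 1.19, adjusted p = 0.677).

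Dendritic cell markers summed to 4998 to 5556 in Ko and 3837 to 4582 in Het. Without Tcf4, which is also expressed outside dendritic cells and made up most of it, the sum was 1210 to 1639 in Ko and 1712 to 2394 in Het. Most of this remainder was a single gene, Bst2, with a mean normalized count of 1214 over all libraries. The remainder was lower in every Ko library, a pattern that 9.86% of all genes tested had. Of the 12 markers 7 were tested, 5 had negative values, the median was -0.80 and 0 were called by limma. DESeq2 called Tcf4 and Sirpa higher, and the authors' deposited table called Tcf4 higher and Bst2 lower. Cd209a was at 0 in all 6 libraries, Itgax had at most 4.30 and Flt3 at most 11.4. Others stood higher, with mean normalized counts over all libraries of 247 for Zbtb46 and 39.6 for Ccr7. Zbtb46 had a log2 fold change of -0.03 in the authors' deposited table (adjusted p = 0.987). The part of dendritic cells in the class II values was not tested. Tcf4 had 0.85 ± 0.17 (adjusted p = 0.0504). Bst2 had -0.80 ± 0.24 (adjusted p = 0.172), Sirpa 3.12 ± 1.48 (adjusted p = 0.399) and Batf3 -3.17 ± 1.69 (adjusted p = 0.459).

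Macrophage markers summed to 1231 to 3317 in Ko and 5212 to 54090 in Het, with 10 of 12 tested. Of these, 8 had negative values, the median was -0.72 and 0 were called by limma. DESeq2 called Lyz2 (adjusted p = 0.0349) and Adgre1 (0.0191) lower, as did the authors' deposited table (0.0014 and 0.00653), which also called Cd163 higher (0.029). Most of the sum was Lyz2, lysozyme, at 497, 2900 and 1130 in the Ko libraries and 53300, 3666 and 8729 in the Het libraries (-3.34 ± 0.87, adjusted p = 0.122). Without Lyz2 the sum was 417 to 1245 in Ko and 675 to 1546 in Het, with overlap. Lyz2 was highest in Het1, where the class II genes were lowest among the Het libraries. The receptor Adgre1 had 4.12, 2.07 and 0 in the Ko libraries and 7.27, 193 and 50.5 in the Het libraries (-4.12 ± 1.56, adjusted p = 0.287), higher in Het2 and Het3 as the class II genes were. Csf1r had 26.8, 1.04 and 27.2 in the Ko libraries and 4.47, 165 and 59.2 in the Het libraries, and Fcgr1 had at most 2.86 anywhere. In the authors' deposited table C1qa, C1qb and C1qc had positive log2 fold changes of 0.59, 0.88 and 0.21 (adjusted p = 0.946, 0.675 and 0.945). In limma, where 8 of the 10 tested were negative and Cd163 positive, these signs did not all hold. Cd163 had 3.54 ± 1.57 (adjusted p = 0.359) and Mrc1 -0.94 ± 0.85 (adjusted p = 0.692). The part of such cells in the class II values was not tested.

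Thymocyte markers summed to 202 to 431 in Ko and 126 to 685 in Het, with 7 of 12 tested and 0 called. The smallest p was that of Cd3g (2.77 ± 2.13, adjusted p = 0.627), followed by Cd3e (adjusted p = 0.779), Thy1 (adjusted p = 0.876) and Cd3d (adjusted p = 0.887).

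Aire-stage medullary epithelial cells have high class II levels, and other medullary cells can arise from them. Their markers included genes that, like the class II genes, were lowest in Het1 among the Het libraries, as were 34.0% of all genes tested. Aire, the regulator that turns on tissue-restricted genes, had 52.5, 441 and 96.0 in the Ko libraries, against 147, 1536 and 1656 in the Het libraries (-2.45 ± 0.99, limma adjusted p = 0.316). Ko2 was the highest Ko library and Het1 the lowest Het library, as for 9 of the 10 class II genes. Ubd, a ubiquitin-like protein, had 4090, 4998 and 7394 in the Ko libraries, against 8249, 40719 and 35545 in the Het libraries (-2.10 ± 0.51, adjusted p = 0.101, and 0.0102 without Het1). Unlike most of the class II genes, Ubd was highest in Ko3 among the Ko libraries, and Het1 lay above every Ko library.

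The 12 markers of this stage summed to 31381 to 34131 in Ko and 37047 to 71531 in Het, with Het1 lowest in Het. Without Ubd the sum was 26737 to 28255 in Ko and 28798 to 30812 in Het. Every Ko library was lower, a pattern that 9.86% of all genes tested had. Most of this remainder was a single gene, Epcam, with a mean normalized count of 16740 over all libraries. In the authors' deposited table Epcam had a log2 fold change of 0.07 (adjusted p = 0.898) and Cldn3 of 0.17 (adjusted p = 0.515). All 12 were tested, 10 had negative values, the median was -0.54 and 0 were called by limma. DESeq2 called Ubd (adjusted p = 0.0136), Cldn4 (0.00262) and Cd80 (0.0486) lower, and the authors' deposited table called Ubd (0.00146) and Cldn4 (0.00156) lower. Cldn4, a tight junction protein, had the smallest p (-0.84 ± 0.18, adjusted p = 0.0750), and Cd80, given above, belongs to this list too. The part of Aire-stage cells or of their RNA in the class II values was not tested.

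Markers of cortical epithelium, which also carries class II molecules, summed to 26390 to 31178 in Ko and 31542 to 57905 in Het. Without Krt8, the most abundant of them, the sum was 7235 to 10558 in Ko and 5976 to 32506 in Het. The groups then overlapped, and Het1 was the lowest library. All 10 were tested, 7 had negative values, the median was -0.35 and 0 were called by limma. Foxn1, the epithelial regulator whose promoter drives the recombinase, had 110, 108 and 85.9 in the Ko libraries, against 240, 442 and 328 in the Het libraries (-1.69 ± 0.49, adjusted p = 0.162). DESeq2 (adjusted p = 0.0302) and the authors' deposited table (0.000232) called Foxn1 lower. Krt8 had -0.25 ± 0.12 (adjusted p = 0.407), Enpep -2.37 ± 1.71 (adjusted p = 0.600) and Psmb11 -1.42 ± 1.24 (adjusted p = 0.676).

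**Figure D4:**
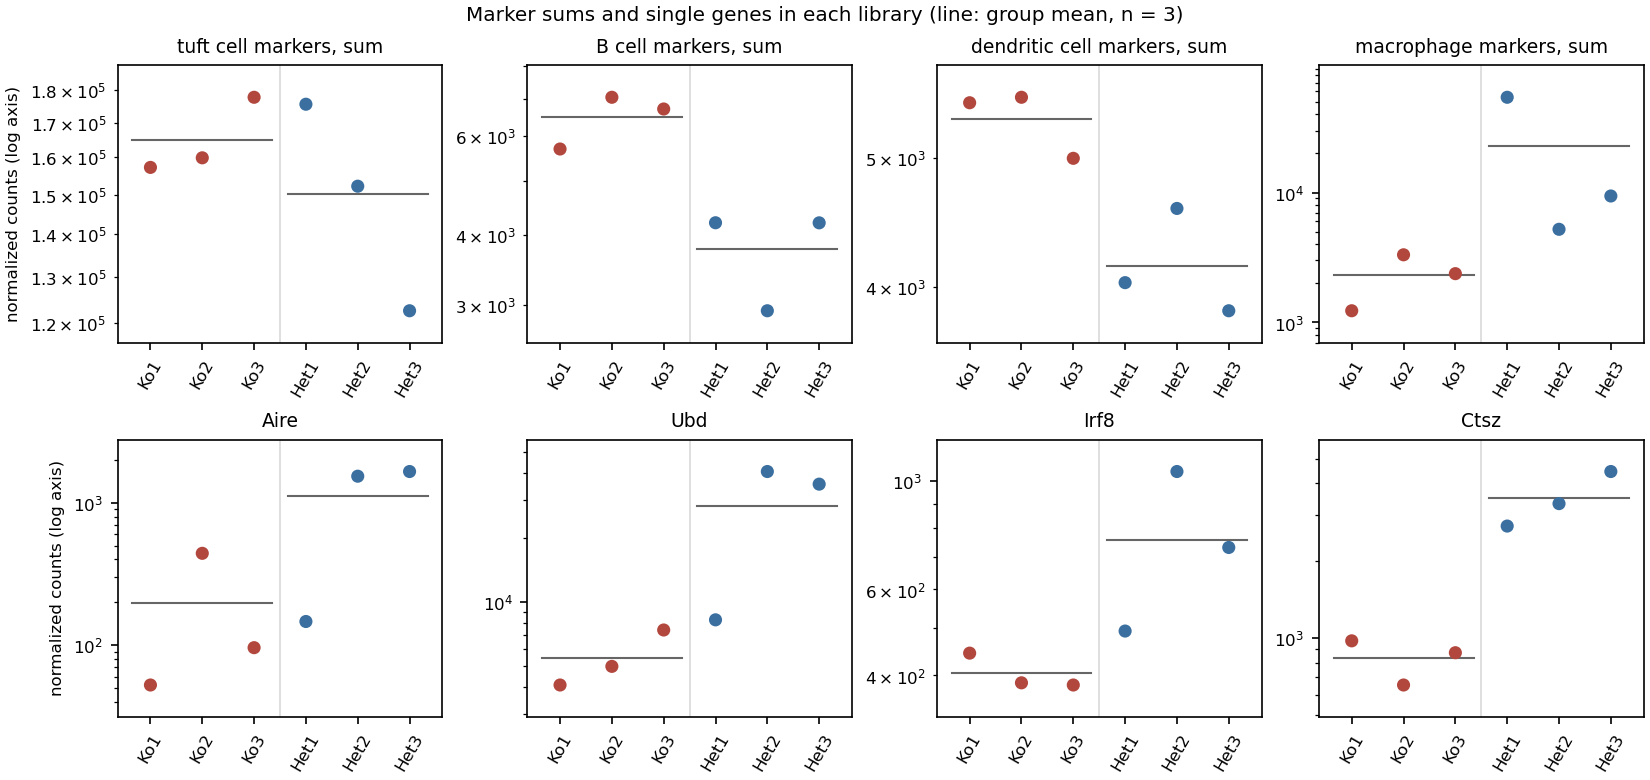
Normalized counts on log axes in each library, Ko left and red, Het right and blue, with lines at the means of 3 libraries. The upper row sums the markers of tuft cells, B cells, dendritic cells and macrophages, and the lower row shows Aire, Ubd, Irf8 and Ctsz. B cell and dendritic cell sums, mostly Cd79b and Tcf4, are higher in every Ko library, the macrophage sum is highest in Het1 (54090), and Het1 is the lowest Het library for Aire (147) and Ubd (8249).

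Genes whose pattern over the 6 libraries was most like that of the abundant chains were ranked by Pearson's r with the mean log2 value of H2-Aa, H2-Ab1, H2-Eb1 and Cd74. Of 12244 genes that had a conventional symbol and averaged 50 or more, 56 had r above 0.95. All points share these 6 libraries and their scaling, so the values are a description. The closest were Dnaic2, a dynein intermediate chain of motile cilia (r = 0.993), Mep1a, the alpha subunit of the protease meprin (0.993), Ppp1r32 (0.986), Mphosph10, a protein of ribosomal RNA processing (0.984), and Vpreb3 (0.984). Vpreb3, known from developing B cells, had 2.06, 95.3 and 0 in the Ko libraries, against 18.5, 1845 and 1730 in the Het libraries, and Mep1a had 3.09, 17.6 and 0 in the Ko libraries, against 11.2, 362 and 313 in the Het libraries. In both, Het2 and Het3 stood far above the other 4 libraries, and both genes reached the mean of 50 only through Het2 and Het3. The ranking selects for such a pattern, because the chains it was made with were also highest in Het2 and Het3. None of the closest genes named was called by limma (adjusted p 0.239 to 0.787).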

How the data were processed

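RNA of 6 sorted tuft cell samples, 3 per group, was sequenced. STAR 2.7.9a, DESeq2 and the build GRCm39 are named in the submitters' processing notes; the sources used here do not state the read counter, annotation, strandedness or filters. The authors deposited a signal per gene and library, a count scaled by the size factor of its library. Per the file headers, their deposited comparison table lists for each gene the mean signal, the log2 fold change and its error, a Wald score, and p-values before and after adjustment. Dividing each column of the signal by the value of 1 read gave whole numbers within 0.01 for 100% of values. A gene name table gave symbols for 55144 of 55471 identifiers and for 10 of the 10 class II genes.

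Genes with a mean of at least 10 were tested in R 4.3.3 by limma 3.58.1, on log2 of the value plus 1 (trend, two-sided, with group alone in the model), and p-values were adjusted by Benjamini-Hochberg over all 19416 genes, with 0.05 as the threshold. Fold changes are on this scale and, for low genes, can differ from a ratio of means in either direction: H2-Ob had -3.82 here and -3.23 in DESeq2. Alternatives were other pseudocounts (0.5 and 5), either no filter or a minimum mean of 50, TMM and equal-total scaling, array weights, edgeR 4.0.16 and DESeq2 1.42.0 on the recovered reads, a block by column number, and leaving out each library. DESeq2 on every gene with a read, marker sums without the most abundant marker, and the share of genes without overlap when Het1 is left out, were chosen after the data were seen. The fits were checked on simulated counts. Lengths are exon unions of the GENCODE vM21 annotation of GRCm38, a build other than the authors'; promoter windows are RefSeq's of GRCm38.p6.

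The 10 genes, the marker and pathway lists and the tests were chosen with earlier results of these data known. Named are the 10 genes, of each list the genes called and up to 4 with the smallest p, and Rfx5, Rfxap, Rfxank, Ikzf1 and L1cam. H2-Eb2, Csf1r, C1qa, C1qb, C1qc, Trpm5, Ebf1, Zbtb46, Ccr7, Epcam, Cldn3 and the markers given as at or near 0 were named after their values were seen.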

Additional observations from a re-analysis of the deposited data

How the results depend on the processing

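All 10 genes kept a negative log2 fold change in each of the 17 alternatives. The count of all genes called was 158, but 75 with edgeR, 1118 with DESeq2, 1626 with DESeq2 on every gene with a read, and 0 (without Het3) to 116 (without Ko1) when a library was left out. The count of class II genes called was 0, but 5 with DESeq2, 2 with DESeq2 on every gene with a read, and 0 to 1 when a library was left out, the 1 being Cd74 without Het1. The count of pathway list genes called was 1, but 6 with DESeq2, 9 with DESeq2 on every gene with a read, and 0 (without Het2 or Het3) to 3 (without Ko1) when a library was left out. Without the filter, DESeq2 fitted 44239 genes in place of 19416; apart from this and from the fewer libraries, the cause of these changes was not tested. The class II share of reads differed by -0.438 to -0.833 percentage points without 1 library, with exact p-values of 0.2 to 0.4, none of which could reach 0.05. Over all genes tested, Ko and Het columns of the same number did not deviate together from their group means (r = 0.025, 0.0214 and -0.0153). This gave no sign of pairing by number but does not exclude that samples were paired. A replicate block by column number gave 87 calls over all genes, 0 of the 10 class II genes among them, and Ctsz stayed called, while Cd79b was lost (adjusted p = 0.0744) and Ubd gained (0.0341). Depth limits H2-Ob, with 5 reads in Ko1, and H2-Ea, with at most 37.6 normalized counts.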
